A study of Homo sapiens with 12 samples.

Results

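The folate dependence of the response to pemetrexed was measured as an interaction: the change with pemetrexed in cells adapted to low folate (Lo cells), minus the change in cells kept at high folate (Hi cells). All 12 of the 12 arrays of the series enter this value, which was computed for 18417 genes, each represented by its brightest probe set with 1 gene symbol. The cells were EA.hy926, an established human line, a hybrid of umbilical vein endothelium and the lung carcinoma line A549. Hi cells grew in M199 medium supplemented to 9 uM folic acid, and Lo cells were a parallel culture adapted to the 23 nM folic acid of that medium without the supplement. Both media held 10% fetal calf serum, non-essential amino acids, antibiotics and an antifungal, and both kinds of cells were grown to confluence and given fresh medium. After a further 24 h, 0.5 uM pemetrexed was added for 48 h (Hi pemetrexed, Lo pemetrexed) or not (Hi control, Lo control), with 3 biological replicates and 3 arrays in each of the 4 groups. All samples are of 1 cell line and the labels do not say how many times it was adapted, so folate level cannot be told apart from anything else that separated the Lo and Hi cultures. The p-values measure the spread between the biological replicates of this line.

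Folates carry one-carbon units for the synthesis of thymidylate and purines. Pemetrexed is an antifolate that enters cells through folate carriers, is retained as polyglutamates, and inhibits thymidylate synthase (TYMS), dihydrofolate reductase and the purine synthesis enzyme GART. Natural folates compete with it for transport and polyglutamation, and cells short of thymidylate stall in DNA replication and activate checkpoint and p53 responses.

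The array medians lay between 7.24 and 7.33 (log2 expression), and precision is set by how few arrays each group holds. The endothelial markers CDH5 (11.98 to 12.86) and PECAM1 (12.21 to 13.44) were high on all arrays, while VWF, also endothelial, spanned 6.68 to 9.71. The keratins of the carcinoma parent were high, with KRT18 at 11.50 to 11.93. The leukocyte gene PTPRC (4.05 to 4.21) and the fibroblast gene DCN (3.85 to 4.15) were near the bottom of the scale. The leukocyte gene CD3E (5.75 to 6.19) and the fibroblast gene COL1A1 (8.17 to 8.41) lay higher. Along the first principal component, which held 61.1% of the variance, the Hi pemetrexed arrays and Hi control replicates 1 and 2 lay between -20.1 and -17.8, Lo control replicates 1 and 2 at 7.18 and 6.75, and the Lo pemetrexed arrays between 30.4 and 32.2. The 2 controls labelled replicate 3 lay with the opposite folate level: Hi control replicate 3 at 8.94 and Lo control replicate 3 at -19.3. All labels were kept as given, and each interaction is reported with all 12 arrays and without these 2 controls (10 arrays).

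Pemetrexed changed expression in Lo cells, and no gene passed the test in Hi cells. With 12 arrays 886 of 18417 genes (4.81%) had an interaction at a Benjamini-Hochberg adjusted p under 0.05 (limma), 474 higher (2.57%) and 412 lower (2.24%); higher means a larger rise, or a smaller fall, in Lo than in Hi cells. With 10 arrays there were 767 (4.16%), 372 higher (2.02%) and 395 lower (2.14%). The 605 genes called with both sets of arrays (3.29%; 311 higher, 1.69%, and 294 lower, 1.6%) are 68.3% of the 12-array calls and 78.9% of the 10-array calls, and none of them differed in sign. With the replicate number as a block, the 10 arrays gave 1738 calls (9.44%; 862 higher, 4.68%, and 876 lower, 4.76%), which included all 767 and all 605. Leaving out single arrays moved the 12-array count most for Lo pemetrexed replicate 3 (443), Hi pemetrexed replicate 2 (506) and replicate 3 (539), Lo pemetrexed replicate 1 (568) and replicate 2 (584), and Lo control replicate 3 (572). It moved the 10-array count most for Lo control replicate 2 (333), Hi control replicate 1 (368), Lo control replicate 1 (388) and Hi control replicate 2 (424).

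The Lo and Hi responses that make up the interaction were of unequal size. In the 10 arrays pemetrexed gave 2018 called genes in Lo cells (11%; 960 higher, 5.21%, and 1058 lower, 5.74%) and 0 in Hi cells, where 335 genes had an unadjusted p under 0.05 in limma. With 12 arrays the counts were 1978 (10.7%, with 5.6% higher and 5.14% lower) and 0, with 266 Hi genes at an unadjusted p under 0.05. Both Hi counts are below what that threshold gives over 18417 genes without any response, so they are no sign of one. Among the 605 genes the median size of the response was 0.72 in Lo cells and 0.07 in Hi cells (log2), against 0.10 and 0.05 over all genes. The Lo response was the larger one in 604 of the 605, and the exception was the olfactory receptor gene OR1N2 (interaction -0.44 ± 0.11, SE, 10 arrays; -0.17 in Lo and 0.27 in Hi cells), named after its values were seen. For 310 of the 311 higher genes all 3 Lo pemetrexed arrays lay above the other 9 arrays, including both controls labelled replicate 3, and for 290 of the 294 lower genes they lay below all 9. Over all genes these shares were 9.37% above and 8.78% below. The 605 genes were selected for their interaction on these same arrays. With no gene called in Hi cells, a call largely requires the treated Lo arrays to stand apart. These values therefore describe the calls and are not separate support for them.

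**Figure D1:**
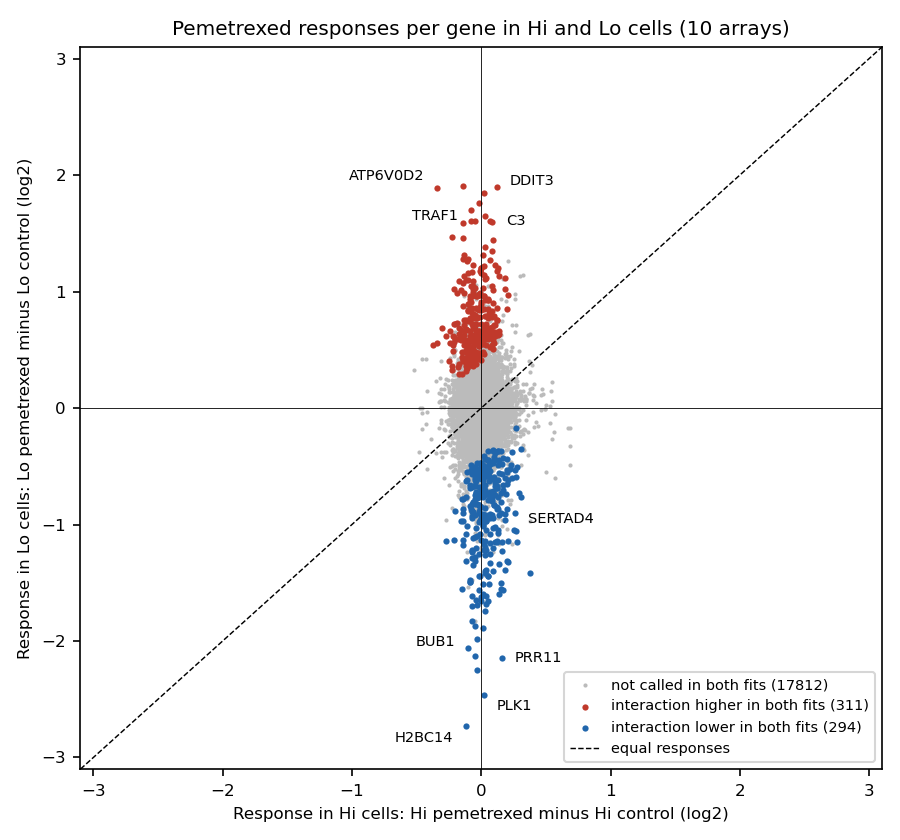
Response to pemetrexed in Hi cells (horizontal axis) against that in Lo cells (vertical axis), log2, 1 point per gene, 10 arrays; the dashed line marks equal responses. The 311 higher (red) and 294 lower (blue) genes form a vertical band around a Hi response of 0, with H2BC14 and PLK1 at the bottom.

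Genes of mitosis had the largest negative interactions together with histone genes. Of 39 measured genes of the G2 and mitosis list, 32 were called lower with 10 arrays, 27 with 12 and the same 27 with both, none higher, beside 1.6% of all genes called lower with both. The median interaction of the list was -1.35 with 10 arrays and -1.11 with 12, against 0.02 over all genes. In bulk RNA a fall of these genes because fewer cells were in mitosis cannot be told apart from less RNA per cell. List counts below stand beside these shares of all genes: 1.69% higher and 1.6% lower with both sets. With 10 arrays the shares were 2.02% and 2.14%, and with 12 arrays 2.57% and 2.24%. Unless stated otherwise, each gene named below with values kept its call when any 1 array was left out of either set.

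PLK1, the kinase that drives entry into and passage through mitosis, measured 11.75, 12.08 and 12.09 in Hi controls (replicates 1 to 3) and 11.69, 12.02 and 12.09 in treated Hi cells. In Lo controls it measured 12.15, 12.23 and 12.12, and in treated Lo cells 9.83, 9.77 and 9.58. The 9 other arrays spanned less than their distance to the treated Lo cells, and the 2 controls labelled replicate 3 lay among the other controls. The interaction was -2.48 ± 0.19 (SE) with 10 arrays (limma, adjusted p = 0.000104) and -2.40 ± 0.17 with 12 (adjusted p = 2.58e-05).

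BUB1, a kinase of the spindle checkpoint, measured 9.98, 10.20 and 10.12 in Hi controls, 9.80, 10.10 and 10.09 in treated Hi cells, 10.45, 10.58 and 10.09 in Lo controls and 8.45, 8.52 and 8.40 in treated Lo cells. Before treatment Lo control replicates 1 and 2 were above every Hi array, and after it all 3 Lo arrays were below every other array. Its interaction was -1.96 ± 0.15 with 10 arrays and -1.81 ± 0.17 with 12 (limma, adjusted p = 0.000104 and 0.000288).

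CCNB1, the mitotic cyclin partner of CDK1, measured 8.79, 8.69 and 9.20 in Hi controls, 8.68, 8.79 and 9.18 in treated Hi cells, 9.43, 9.47 and 9.04 in Lo controls and 7.75, 7.92 and 7.86 in treated Lo cells. It had an interaction of -1.75 ± 0.18 (adjusted p = 0.000386) with 10 arrays and -1.46 ± 0.22 (0.00369) with 12. The order of the folate levels was again turned over by treatment. The interactions with 10 arrays were -1.70 ± 0.15 for cyclin CCNA2, -1.54 ± 0.13 for CCNB2 and -1.77 ± 0.17 for the topoisomerase TOP2A, and those of the last 2 were -1.39 and -1.56 with 12. Also called lower with both sets were KIF15, a spindle motor (-2.22 ± 0.36), PRC1, a bundler of spindle microtubules (-2.08 ± 0.25), the centromere protein CENPI (-1.95 ± 0.21), SGO2, a guardian of centromeric cohesion (-1.83 ± 0.20), SPC25 of the kinetochore (-1.77 ± 0.20), and PRR11 (-2.30 ± 0.21) and DEPDC1 (-1.89 ± 0.32).

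**Figure D2:**
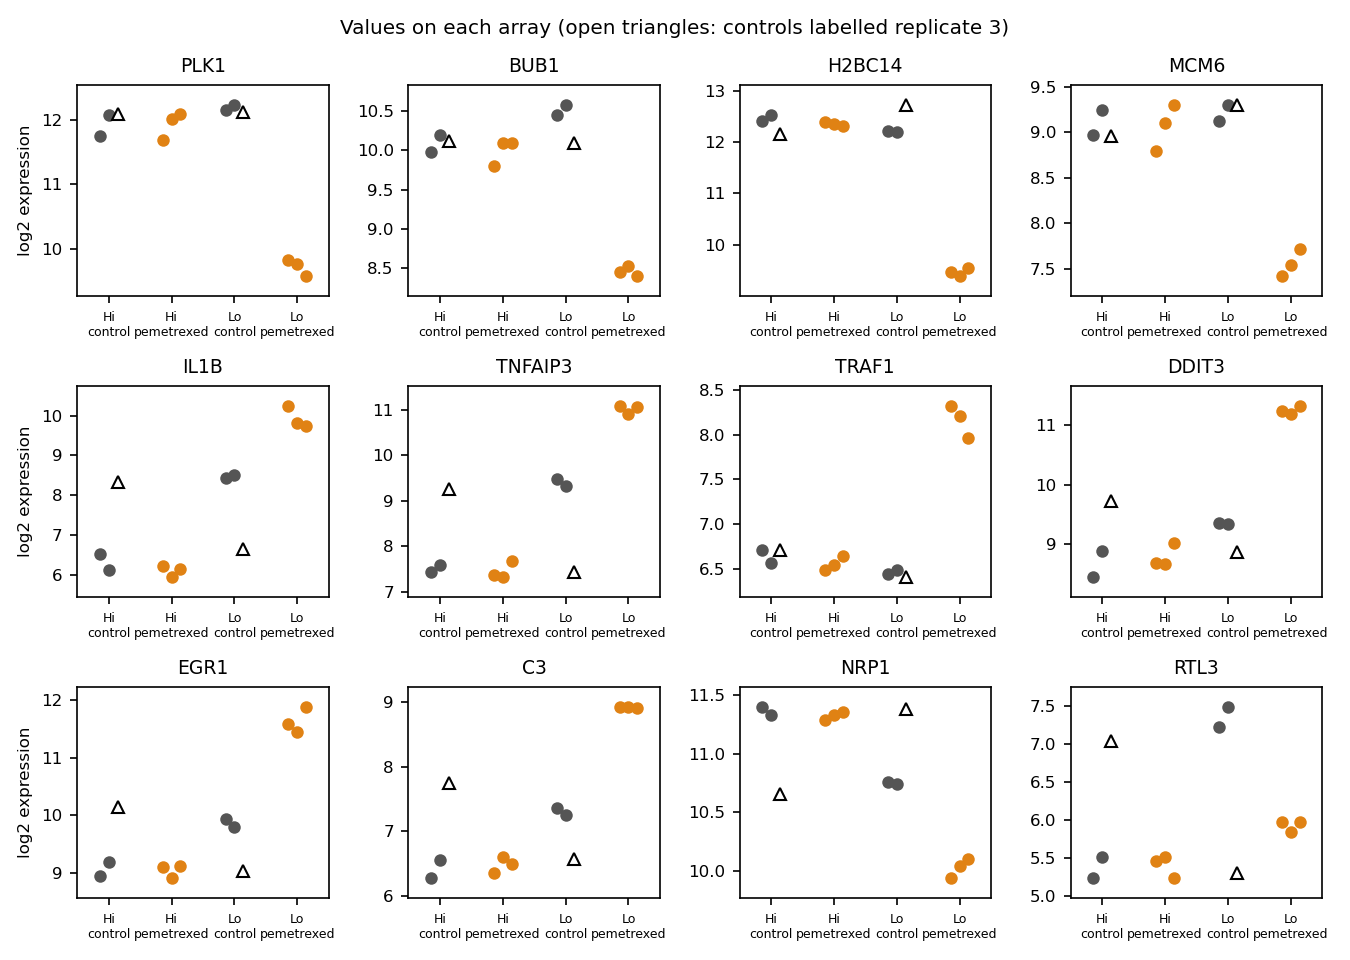
Log2 expression on each of the 12 arrays for 12 genes, by group; open triangles are the 2 controls labelled replicate 3. In every panel but that of RTL3 the 3 Lo pemetrexed arrays lie beyond all other arrays, while the triangles of IL1B, TNFAIP3, C3, NRP1 and RTL3 lie with the opposite folate level and those of PLK1 and TRAF1 with their own group.

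All 39 mitosis genes were higher in Lo than in Hi controls in the 10 arrays (10 of them called, beside 3.67% of all genes called higher and 3.5% lower there), with a median gap of 0.36. In treated cells the median gap was -0.91. All 32 genes called with 10 arrays crossed, that is, their Lo minus Hi difference had one sign in controls and the other in treated cells.

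Promoters of this group share letters that the interaction did not use. In RefSeq windows of 300 bases (GRCh38.p14, 250 before to 50 after the gene's start, found for 14237 of the genes), both strands were searched for the cell cycle genes homology region, CHR (TTTGAA or TTCGAA), a promoter element of late cell cycle genes. It stood in 83 of 246 windows of genes called lower (33.7%), in 30 of 250 of genes called higher (12%) and in 13.3% of all windows; in the mitosis list it stood in 23 of 34 (67.6%). The CCAAT box stood in 52.8% of the lower genes, 45.2% of the higher and 36.3% of all, and in 73.5% of the mitosis list. Both elements together were found in 23.2%, 3.6%, 5.44% and 52.9% of these sets. E2F sites (TTTCCCGC or TTTGGCGC) were in 8.94% of the lower genes, 2.4% of the higher, 3.1% of all and 2.94% of the mitosis list. A match is a description, not a bound site.

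Shown here are the windows of 3 mitosis genes and of the replication gene MCM6, on each gene's strand, with matches in capitals. PLK1 lies at chr16:23678639-23678938 (plus strand), with CCAAT 73 bases and TTTGAA 29 bases before the start. BUB1 lies at chr2:110678014-110678313 (minus strand), with a CCAAT box on the opposite strand 79 bases and another on its own strand 54 bases before the start, and TTCGAA from base 2 of the transcript. TOP2A lies at chr17:40417847-40418146 (minus strand) and holds 4 CCAAT boxes and 2 CHR matches. MCM6 lies at chr2:135876394-135876693 (minus strand) and holds the E2F letters TTTGGCGC at 152 and 90 bases before the start, 2 CCAAT boxes on the opposite strand and 1 CHR match.
PLK1: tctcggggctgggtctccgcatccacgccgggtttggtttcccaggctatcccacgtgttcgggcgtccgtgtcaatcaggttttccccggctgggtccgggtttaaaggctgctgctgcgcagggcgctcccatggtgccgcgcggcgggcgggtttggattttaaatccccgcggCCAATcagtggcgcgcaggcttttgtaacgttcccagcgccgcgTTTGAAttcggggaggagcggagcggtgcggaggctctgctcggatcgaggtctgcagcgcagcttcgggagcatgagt
BUB1: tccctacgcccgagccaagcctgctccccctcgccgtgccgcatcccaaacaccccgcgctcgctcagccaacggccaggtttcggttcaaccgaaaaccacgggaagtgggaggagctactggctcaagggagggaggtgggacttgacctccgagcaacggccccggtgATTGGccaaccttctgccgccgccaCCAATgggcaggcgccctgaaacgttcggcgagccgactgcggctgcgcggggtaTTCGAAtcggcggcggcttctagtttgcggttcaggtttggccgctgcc
TOP2A: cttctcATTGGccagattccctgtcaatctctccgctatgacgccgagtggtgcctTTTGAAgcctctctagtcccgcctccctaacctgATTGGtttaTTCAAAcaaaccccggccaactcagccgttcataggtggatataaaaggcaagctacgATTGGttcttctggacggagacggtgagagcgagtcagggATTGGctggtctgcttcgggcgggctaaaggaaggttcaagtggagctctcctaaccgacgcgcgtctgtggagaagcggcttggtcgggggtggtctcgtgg
MCM6: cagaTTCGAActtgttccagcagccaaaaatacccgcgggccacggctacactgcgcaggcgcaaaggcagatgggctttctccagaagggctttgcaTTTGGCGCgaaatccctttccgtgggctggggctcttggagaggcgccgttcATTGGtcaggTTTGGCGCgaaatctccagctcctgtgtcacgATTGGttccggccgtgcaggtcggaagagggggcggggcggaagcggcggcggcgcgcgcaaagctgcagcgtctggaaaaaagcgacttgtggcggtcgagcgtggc

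Of 41 measured genes of S phase and DNA replication, 16 were called lower with each set of arrays and 15 with both, none higher; with the replicate block the 10 arrays gave 30. The median interaction was -0.60 with 10 arrays and -0.56 with 12. MCM6, a subunit of the replicative helicase, measured 8.97, 9.25 and 8.96 in Hi controls, 8.79, 9.10 and 9.30 in treated Hi cells, 9.12, 9.30 and 9.30 in Lo controls and 7.42, 7.54 and 7.72 in treated Lo cells. The 9 arrays outside the treated Lo group overlapped across folate level and treatment. Its interaction was -1.61 ± 0.20 with 10 arrays and -1.68 ± 0.18 with 12 (limma, adjusted p = 0.0011 and 0.000524). GINS2, which activates that helicase, had -1.73 ± 0.16, the clamp loader subunit RFC4 -1.32 ± 0.16 and MCM5 -1.01 ± 0.12 with 10 arrays.

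Replication-dependent histone genes, transcribed in S phase, gave the single lowest value. Of 28 measured, 14 were called lower with 10 arrays, 17 with 12 and 14 with both, none higher. Because histone genes resemble one another in sequence, a probe set may read several of them, and each single value is uncertain. H2BC14 measured 12.41, 12.53 and 12.16 in Hi controls, 12.38, 12.35 and 12.32 in treated Hi cells, 12.21, 12.20 and 12.72 in Lo controls and 9.48, 9.40 and 9.56 in treated Lo cells. Its treated Lo arrays stood far below the other 9, which lay within a narrow range. The interaction was -2.60 ± 0.11 with 10 arrays and -2.88 ± 0.18 with 12 (limma, adjusted p = 3.35e-07 and 2.58e-05). H2BC3 (-1.80 ± 0.31), H2BC9 (-1.48 ± 0.18), H2AC4 (-1.43 ± 0.20) and H3C1 (-1.30 ± 0.17) had the next values in the histones named here, and all 5 lie on chromosome 6. Histones differed from mitosis genes in the controls: their median Lo minus Hi gap was -0.08 before treatment and -0.84 after it. Of the 14 called in both, 11 widened (kept the sign of the gap and grew) and 3 crossed. In the controls 1 of the 28 had a called gap (higher), so the sign of most was uncertain.

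Genes of homologous recombination, the Fanconi pathway and the checkpoint held 9 of 30 members called lower with each set of arrays, 7 with both, and 1 higher with 12 arrays only (HUS1, named after its values were seen). Without Lo pemetrexed replicate 3 the 12-array count of calls in this list was 5 in place of 10, and with the block the 10 arrays gave 18 lower and 1 higher. XRCC2, which acts in homologous recombination, had an interaction of -1.21 ± 0.20 and UBE2T, the ubiquitin-conjugating enzyme of the Fanconi pathway, one of -0.96 ± 0.14 with 10 arrays (limma, adjusted p = 0.00609 and 0.00311). FANCI (-1.05 ± 0.21) lost its call in the 10 arrays without Hi control replicate 1, Lo control replicate 1 or Lo control replicate 2 (highest adjusted p = 0.0832), and FANCC (-0.69 ± 0.12) without Lo control replicate 2 (0.0576).

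The interaction of TYMS, GART and 4 other genes of folate transport and use did not pass with either set of arrays. TYMS measured 11.19, 11.51 and 11.57 in Hi controls, 11.25, 11.44 and 11.66 in treated Hi cells, 11.44, 11.73 and 11.53 in Lo controls and 11.11, 11.47 and 11.19 in treated Lo cells, so all groups overlapped. Its interaction of -0.43 ± 0.21 with 10 arrays and -0.34 ± 0.19 with 12 did not pass (limma, adjusted p = 0.362 and 0.36). The interactions with 10 arrays were -0.02 ± 0.16 for GART, -0.10 ± 0.13 for the purine enzyme ATIC, -0.07 ± 0.15 for FPGS, which adds the polyglutamate tail, -0.10 ± 0.12 for the reduced folate carrier SLC19A1 and 0.08 ± 0.11 for the folate receptor FOLR1, with adjusted p of 0.794 or more. The sign of GART and ATIC was positive with 12 arrays (0.06 and 0.09). That these genes did not pass does not show that they responded alike in both kinds of cells. FOLR1 lay low on all 12 arrays (5.94 to 6.24), near the leukocyte gene CD3E (5.75 to 6.19), so its value says little about a response. No gene of purine synthesis and salvage was called of 20 with either set (limma), near the shares of all genes (2.02% higher and 2.14% lower with 10 arrays). The list's median was -0.04 with 10 arrays.

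In folate and one-carbon metabolism (30 genes) 1 was higher and 1 lower with both sets of arrays, near the shares of all genes (1.69% and 1.6%). GGH, which removes polyglutamate tails, measured 9.09, 9.35 and 9.43 in Hi controls, 9.08, 9.32 and 9.59 in treated Hi cells, 9.39, 9.70 and 9.40 in Lo controls and 8.79, 8.90 and 8.68 in treated Lo cells. Treated Lo cells lay below the other arrays, whose groups overlapped. Its interaction was -0.86 ± 0.20 with 10 arrays and -0.74 ± 0.19 with 12, but the call was lost in 7 of the 10 and 9 of the 12 fits that left out 1 array (highest adjusted p = 0.175 and 0.11). CTH, which makes cysteine from cystathionine, had 0.84 ± 0.20 and 1.16 ± 0.28 and lost its call in 8 of 10 and 7 of 12 such fits (0.142 and 0.0861). With 12 arrays, and with the block on 10, the list held 4 higher and 2 lower members. The 12-array count of 6 became 0 without Hi pemetrexed replicate 2 or any 1 of the Lo pemetrexed arrays, 1 without Hi control replicate 3, Hi pemetrexed replicate 3 or Lo control replicate 3, and 3 without Hi control replicate 1 or Lo control replicate 2.

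In pyrimidine and deoxynucleotide metabolism 2 of 25 genes were higher and 2 lower with both sets, beside 1.69% and 1.6% of all genes. TDG, a thymine DNA glycosylase that acts on mismatches, measured 7.34, 7.36 and 7.26 in Hi controls, 7.29, 7.15 and 7.30 in treated Hi cells, 7.08, 7.24 and 7.35 in Lo controls and 7.85, 7.76 and 7.88 in treated Lo cells. The treated Lo arrays stood above the other 9, and the interaction was 0.78 ± 0.12 with 10 arrays and 0.68 ± 0.11 with 12 (limma, adjusted p = 0.00287 and 0.00583). UNG, the glycosylase that removes uracil from DNA, had the opposite sign, -0.87 ± 0.20 with 10 arrays and -1.01 ± 0.19 with 12, and lost its call in 5 of the 10 fits of the 10 arrays that left out 1 array (highest adjusted p = 0.122) and in none of the 12. DTYMK, the thymidylate kinase, had -0.74 ± 0.13 and -0.60 ± 0.14, and with 12 arrays it lost its call in 8 of 12 such fits (0.0821). UPP1, uridine phosphorylase, had 0.64 ± 0.13 and 0.74 ± 0.13 and lost its call in 5 of 10 fits of the 10 arrays (0.0942).

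**Figure D3:**
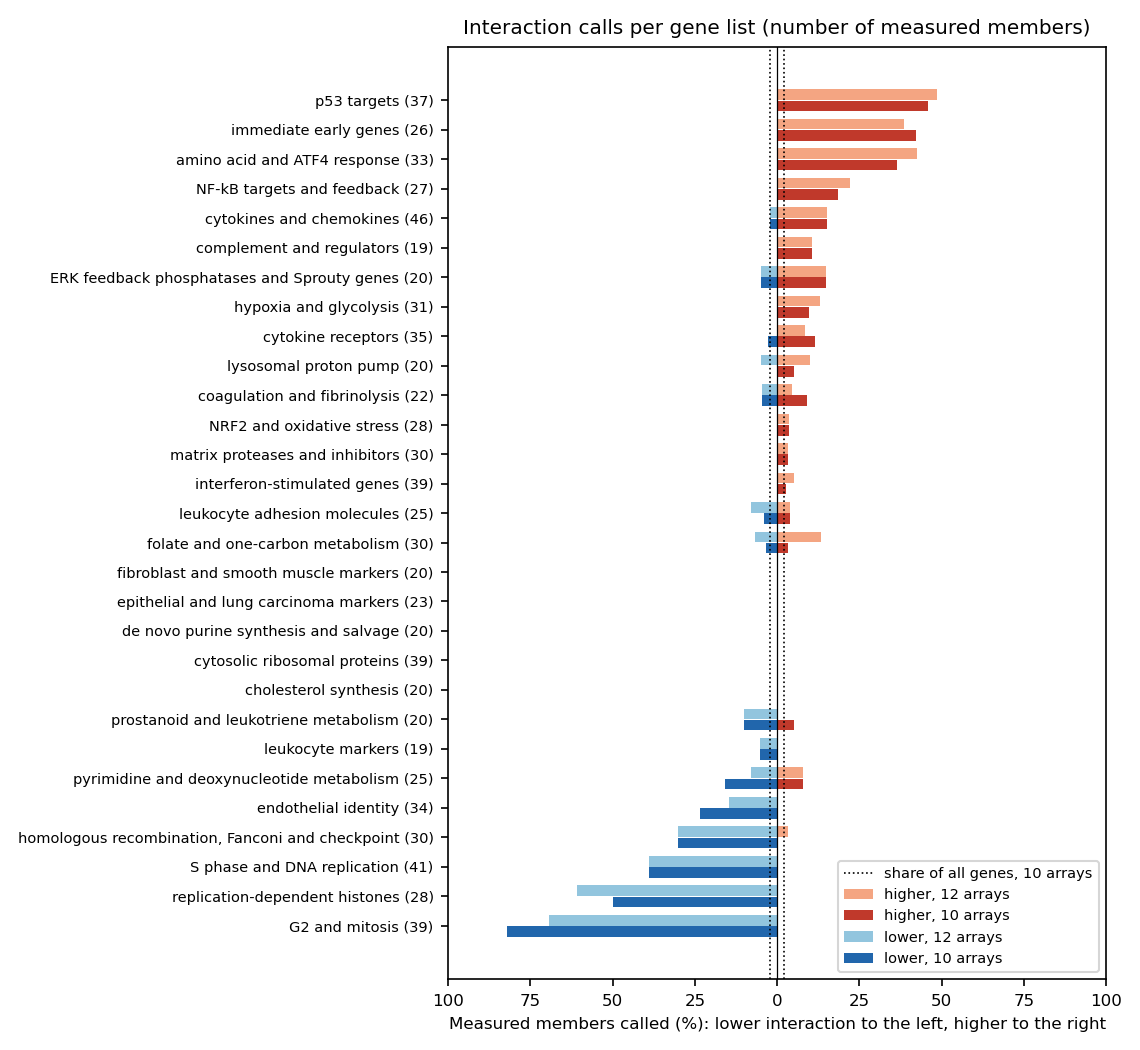
Share of the measured members of each gene list (number measured in parentheses) with a called interaction, lower to the left and higher to the right, with 12 arrays (light bars) and 10 arrays (dark bars); dotted lines give the share of all genes called with 10 arrays, 2.02% higher and 2.14% lower. The mitosis list reaches furthest to the left, with 32 of 39 members at 10 arrays, and the p53 targets furthest to the right with 12 arrays, with 18 of 37.

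Of 37 measured p53 targets, 17 were called higher with 10 arrays, 18 with 12 and 14 with both, none lower, beside 1.69% of all genes called higher with both. The 12-array count was 11 without Hi pemetrexed replicate 3, Lo pemetrexed replicate 1 or Lo pemetrexed replicate 2. The median interaction was 0.46 with 10 arrays and 0.52 with 12. GADD45A, a growth arrest and DNA damage gene, measured 10.07, 10.08 and 10.48 in Hi controls, 10.07, 10.19 and 10.29 in treated Hi cells, 10.22, 10.31 and 10.24 in Lo controls and 11.38, 11.59 and 11.50 in treated Lo cells. The treated Lo arrays were all above the rest, and the other groups overlapped. Its interaction was 1.12 ± 0.12 with 10 arrays and 1.26 ± 0.15 with 12 (limma, adjusted p = 0.000605 and 0.000922).

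CDKN1A, the p21 inhibitor of cyclin-dependent kinases, measured 11.19, 11.28 and 11.47 in Hi controls, 11.28, 11.24 and 11.25 in treated Hi cells, 11.40, 11.34 and 11.20 in Lo controls and 12.16, 12.01 and 11.91 in treated Lo cells. Only treated Lo cells stood apart on these arrays. Its interaction of 0.63 ± 0.12 with 10 arrays (adjusted p = 0.0104) lost its call without Hi control replicate 2 or Lo control replicate 2 (highest adjusted p = 0.0609); with 12 arrays it was 0.76 ± 0.13. MDM2, the p53 ubiquitin ligase and a p53 target itself, had 0.08 ± 0.13 with 10 arrays and 0.24 ± 0.15 with 12 and did not pass (limma, adjusted p = 0.863 and 0.434). SERTAD1 (0.90 ± 0.12) and SESN2, a stress sestrin (0.75 ± 0.10), were called with both sets, and TP53I3 (0.81 ± 0.12) lost its 12-array call without Hi pemetrexed replicate 2 or 3 or Lo pemetrexed replicate 1 (highest adjusted p = 0.0563).

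In the amino acid and ATF4 stress response (33 genes) 12 were called higher with 10 arrays, 14 with 12 and 10 with both, none lower, and ATF4 itself (0.12 ± 0.12 with 10 arrays) did not pass. The 12-array count was 8 without Hi pemetrexed replicate 2, Lo pemetrexed replicate 1 or Lo pemetrexed replicate 2, and 9 without Hi control replicate 3 or Lo pemetrexed replicate 3. DDIT3, the stress transcription factor CHOP, measured 8.46, 8.89 and 9.72 in Hi controls, 8.69, 8.67 and 9.02 in treated Hi cells, 9.35, 9.34 and 8.87 in Lo controls and 11.23, 11.18 and 11.31 in treated Lo cells. Both controls labelled replicate 3 lay with the other folate level, and treated Lo cells lay above all arrays. Its interaction was 1.78 ± 0.18 with 10 arrays and 2.29 ± 0.35 with 12 (limma, adjusted p = 0.000447 and 0.00342). ATF3, a factor of the same response, had 1.18 ± 0.13 and 1.35 ± 0.15. PPP1R15A, which reverses the stress block on translation, had 0.99 ± 0.13 and 0.98 ± 0.12. Some called members are counted in other lists too: SESN2 among the p53 targets, ATF3 among the immediate early genes and CTH in the folate list. The counts of these lists are therefore not separate. The C/EBP-ATF element (TGATGCAA) stood in 4 of 250 promoter windows of higher genes (1.6%), 0% of lower genes and 0.73% of all. For the ATF/CRE letters TGACGTCA the shares were 6%, 3.25% and 2.65%. They also stood in 5 of 34 windows of the mitosis list (14.7%), so they were not particular to higher genes.

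Immediate early genes, which respond to growth factor and stress signals within minutes, held 11 of 26 members called higher with 10 arrays, 10 with 12 and 10 with both, none lower. EGR1, a zinc finger factor, measured 8.95, 9.19 and 10.15 in Hi controls, 9.11, 8.92 and 9.13 in treated Hi cells, 9.94, 9.80 and 9.03 in Lo controls and 11.58, 11.44 and 11.88 in treated Lo cells. The levels of the 10 arrays rose from Hi cells through Lo controls to treated Lo cells without overlap. The interaction was 1.78 ± 0.18 with 10 arrays and 2.42 ± 0.39 with 12 (limma, adjusted p = 0.000351 and 0.00511). FOSB, a subunit of AP-1, had 1.07 ± 0.14 and ARC 1.13 ± 0.13 with 10 arrays, and in both the Lo and Hi controls were close (gaps of 0.05 ± 0.11 and 0.07 ± 0.10). The AP-1 letters TGACTCA stood in 6.4% of windows of higher genes, 1.22% of lower and 3.55% of all.

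The list of ERK feedback phosphatases and Sprouty genes also holds the transcription factor ETV1. Of its 20 genes 2 were higher and 1, ETV1, was lower with both sets, beside 1.69% and 1.6% of all genes. DUSP10, which dephosphorylates stress kinases, had an interaction of 0.90 ± 0.11 with 10 arrays and 0.91 ± 0.11 with 12 (limma, adjusted p = 0.0011 and 0.00109). DUSP5 (0.54 ± 0.11) lost its 10-array call without Hi control replicate 2 or Lo control replicate 1 (highest adjusted p = 0.0802). ETV1 (-0.45 ± 0.10) lost its call in 5 of 10 and 8 of 12 fits that left out 1 array (0.108 and 0.0937).

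Of 46 cytokines and chemokines, 7 were higher and 1 lower with each set and with both, beside 1.69% and 1.6% of all genes. With the block the 10 arrays gave 14 higher and 1 lower (4.68% and 4.76% of all genes). Without a Hi pemetrexed array or Lo pemetrexed replicate 1 or 3 the 12-array count was 5 in place of 8, and without Lo pemetrexed replicate 2 it was 4. IL1B, the secreted interleukin-1 beta, measured 6.53, 6.12 and 8.34 in Hi controls, 6.22, 5.95 and 6.14 in treated Hi cells, 8.42, 8.50 and 6.64 in Lo controls and 10.24, 9.81 and 9.74 in treated Lo cells. It rose in 2 steps across the 10 arrays, from Hi cells to Lo controls and again to treated Lo cells, and the controls labelled replicate 3 were on the opposite steps. The interaction was 1.70 ± 0.22 with 10 arrays and 2.98 ± 0.75 with 12 (limma, adjusted p = 0.0011 and 0.0407). The 12-array call was lost without any 1 of the 6 treated arrays or Lo control replicate 3 (highest adjusted p = 0.0947), and the 10-array call was not.

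IL1A measured 9.09, 9.19 and 10.12 in Hi controls, 8.98, 9.16 and 8.98 in treated Hi cells, 10.18, 10.25 and 8.87 in Lo controls and 11.44, 11.37 and 11.32 in treated Lo cells, in the same 2 steps. Its interaction was 1.26 ± 0.12 with 10 arrays and 2.04 ± 0.45 with 12, where the call was lost without any 1 of the 6 treated arrays (highest adjusted p = 0.062). IL1RL1, the receptor of IL33, went from 6.27, 6.15 and 8.13 in Hi controls and 6.17, 5.84 and 6.20 in treated Hi cells to 8.15, 8.10 and 6.33 in Lo controls and 9.59, 9.53 and 9.62 in treated Lo cells. It had 1.60 ± 0.15 with 10 arrays and 2.83 ± 0.71 with 12, where the call was lost without any 1 of the 6 treated arrays or Lo control replicate 3 (0.0978). In the 10 arrays Lo controls were already above Hi controls, by 2.13 for IL1B, 1.07 for IL1A and 1.92 for IL1RL1.

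IL33, an alarmin of the interleukin-1 family, measured 5.52, 5.53 and 5.72 in Hi controls, 5.24, 5.53 and 5.61 in treated Hi cells, 5.28, 5.45 and 5.46 in Lo controls and 6.42, 6.78 and 6.39 in treated Lo cells. It was low and overlapping in 3 groups and higher in treated Lo cells. Its interaction was 1.24 ± 0.18 with 10 arrays and 1.27 ± 0.17 with 12 (limma, adjusted p = 0.00308 and 0.00163). LIF, an interleukin-6 family cytokine, had 1.20 ± 0.18 and 1.61 ± 0.29. CCL2, a monocyte chemokine, measured 11.27, 11.11 and 11.44 in Hi controls, 11.40, 11.30 and 11.15 in treated Hi cells, 11.58, 11.55 and 11.23 in Lo controls and 10.95, 10.78 and 10.72 in treated Lo cells, so it ran against the other called cytokines. Its interaction was -0.84 ± 0.14 with 10 arrays and -0.65 ± 0.16 with 12, and with 12 the call was lost in 8 of 12 fits that left out 1 array (highest adjusted p = 0.108).

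IL6 and CXCL8, both secreted on interleukin-1 signalling, did not pass. IL6 measured 6.32, 6.46 and 7.63 in Hi controls, 6.64, 6.43 and 6.54 in treated Hi cells, 7.47, 7.63 and 6.53 in Lo controls and 7.97, 8.03 and 7.89 in treated Lo cells. In the 10 arrays the step between Hi and Lo controls (1.16 ± 0.10) was larger than the difference between treated and control Lo cells (0.42 ± 0.09). Its interaction was 0.27 ± 0.13 with 10 arrays and 1.02 ± 0.44 with 12 (limma, adjusted p = 0.338 and 0.225). CXCL8 had 0.91 ± 0.29 and 1.73 ± 0.53 (adjusted p = 0.13 and 0.0859; with the block on 10 arrays 0.017). PTGS2, the inducible cyclooxygenase, had 0.73 ± 0.17 with 10 arrays (0.0326), a call that was lost in 7 of 10 fits that left out 1 array (highest adjusted p = 0.151), and 1.55 ± 0.49 with 12 (0.0939).

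Of 35 cytokine receptors 3 were higher with both sets, IL1RL1 among them, beside 1.69% of all genes. The 10 arrays gave 4 higher and 1 lower, beside 2.02% and 2.14%. TNFRSF9, a costimulatory TNF receptor, had 1.38 ± 0.15 with 10 arrays and IL13RA2, a decoy receptor for interleukin-13, 1.29 ± 0.19, with Lo minus Hi control gaps of -0.06 ± 0.12 and 0.10 ± 0.14. Among 27 genes that NF-kB induces or that feed back on it, 5 were higher with both sets, 5 with 10 arrays and 6 with 12, none lower, and the block gave 9. TRAF1, an adaptor of TNF receptors, measured 6.71, 6.57 and 6.71 in Hi controls, 6.49, 6.54 and 6.64 in treated Hi cells, 6.44, 6.49 and 6.41 in Lo controls and 8.32, 8.21 and 7.96 in treated Lo cells. Lo controls were at or below the lowest Hi array, and treated Lo cells stood above all. The interaction was 1.78 ± 0.14 with 10 arrays and 1.83 ± 0.13 with 12 (limma, adjusted p = 0.000159 and 2.58e-05). NFKB2, the p100 subunit of the non-canonical pathway, had 1.08 ± 0.15 and 1.23 ± 0.16, while NFKBIB (0.58 ± 0.12) lost its call in 6 of 10 fits of the 10 arrays that left out 1 array (highest adjusted p = 0.0987).

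TNFAIP3, the A20 enzyme that ends NF-kB signalling, measured 7.44, 7.58 and 9.26 in Hi controls, 7.37, 7.33 and 7.68 in treated Hi cells, 9.47, 9.33 and 7.43 in Lo controls and 11.08, 10.90 and 11.06 in treated Lo cells. It rose in the 2 steps of IL1B. Its interaction was 1.66 ± 0.16 with 10 arrays and 2.90 ± 0.72 with 12 (limma, adjusted p = 0.000247 and 0.0385), and the 12-array call was lost without any 1 of the 6 treated arrays or Hi control replicate 3 (highest adjusted p = 0.0911). NF-kB letters (GGNNTTTCC, both strands) stood in 8.4% of promoter windows of higher genes, 5.69% of lower and 6.6% of all. The TNFAIP3 window, at chr6:137867009-137867308 (plus strand), is shown for its pair of such matches, GGAAAGTCC and GGAAATCCC at 67 and 55 bases before the start (capitals). TATAAA stood in 12% of windows of higher genes, 13% of lower and 9% of all.
TNFAIP3: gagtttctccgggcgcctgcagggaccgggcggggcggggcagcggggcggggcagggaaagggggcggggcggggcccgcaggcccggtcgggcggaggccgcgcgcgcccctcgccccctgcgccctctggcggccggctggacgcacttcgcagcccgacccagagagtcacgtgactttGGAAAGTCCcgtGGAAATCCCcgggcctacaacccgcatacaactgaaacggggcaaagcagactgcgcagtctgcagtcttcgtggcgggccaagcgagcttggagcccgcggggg

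ATP6V0D2, a subunit of the lysosomal proton pump, had the largest positive interaction of the genes called with both sets. It measured 4.96, 5.43 and 7.89 in Hi controls, 4.71, 4.74 and 5.11 in treated Hi cells, 7.32, 7.87 and 5.25 in Lo controls and 9.00, 9.61 and 9.85 in treated Lo cells, in 2 steps across the 10 arrays. The interaction was 2.24 ± 0.34 with 10 arrays and 3.92 ± 1.00 with 12 (limma, adjusted p = 0.0032 and 0.0431). The 12-array call was lost without any 1 of the 6 treated arrays or Lo control replicate 3 (highest adjusted p = 0.109). It was the only 1 of 20 genes of the pump called with 10 arrays. With 12 arrays 2 were higher and 1 lower, the others being ATP6V1B2 (0.54) and ATP6V0E2 (-0.47), named after their values were seen. Calls of this list with 12 arrays were lost without single arrays, so no kept call is stated for these 2. With the block on 10 arrays 3 were higher and 1 lower.

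ACTBL2, an actin-like gene, measured 5.46, 5.67 and 5.95 in Hi controls, 5.38, 5.49 and 5.42 in treated Hi cells, 5.84, 6.15 and 5.45 in Lo controls and 7.73, 7.73 and 8.27 in treated Lo cells. Its interaction was 2.05 ± 0.22 with 10 arrays and 2.36 ± 0.26 with 12 (limma, adjusted p = 0.000448 and 0.000524). SAT1, which acetylates polyamines for export, measured 9.62, 9.69 and 10.95 in Hi controls, 9.66, 9.57 and 9.85 in treated Hi cells, 10.75, 10.68 and 9.82 in Lo controls and 12.34, 12.38 and 12.38 in treated Lo cells. It had 1.62 ± 0.12 and 2.35 ± 0.43, and MRGPRX4, a receptor of the Mas-related family, 1.83 ± 0.19 and 2.13 ± 0.24. The adaptor SH2D2A had 1.73 ± 0.21 and 2.11 ± 0.29, and the membrane protein gene TMEM40 1.69 ± 0.18 and 2.13 ± 0.30.

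C3, the central component of complement, measured 6.28, 6.55 and 7.75 in Hi controls, 6.35, 6.61 and 6.49 in treated Hi cells, 7.36, 7.26 and 6.57 in Lo controls and 8.93, 8.93 and 8.91 in treated Lo cells. The treated Lo arrays nearly coincided and lay above all others. Its interaction was 1.55 ± 0.14 with 10 arrays and 2.23 ± 0.42 with 12 (limma, adjusted p = 0.000233 and 0.0112). C1S, a protease of the classical pathway, had 1.02 ± 0.17 and 1.18 ± 0.17. These 2 were the only members of 19 complement genes called with either set, beside 1.69% of all genes called higher with both. SERPIND1, heparin cofactor II, had 0.94 ± 0.15 and 1.16 ± 0.19, VEGFA, the endothelial growth factor, 0.88 ± 0.13 and 1.04 ± 0.14, and the glycolytic regulator PFKFB3 0.68 ± 0.11 and 0.76 ± 0.12. Thrombospondin THBS1 (-0.46 ± 0.10) lost its call in 7 of 10 fits of the 10 arrays that left out 1 array (highest adjusted p = 0.115).

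Of 34 measured endothelial identity genes, 8 were called lower with 10 arrays, 5 with 12 and 5 with both, none higher, and with the block 10. Leaving out Hi pemetrexed replicate 1 or 2, Lo control replicate 3 or Lo pemetrexed replicate 1 or 3 brought the 12-array count to 3. The median interaction was -0.19 with 10 arrays and -0.53 with 12. The mean level of the list was 9.39 to 10.04 in Hi controls, 9.94 to 10.07 in treated Hi cells, 9.37 to 9.98 in Lo controls and 9.09 to 9.17 in treated Lo cells. The mean level of the epithelial list was 7.72 to 7.75 in treated Lo cells, above all other arrays (7.43 to 7.70), with 7.44 to 7.45 in treated Hi cells. That of the fibroblast list was 7.72 to 7.80 in treated Lo and 7.44 to 7.53 in treated Hi cells, with controls between 7.50 and 7.80, and that of the leukocyte list was 6.76 to 6.86 and 6.66 to 6.79. No member of the epithelial (23) or fibroblast (20) marker lists was called with either set, and 1 of 19 leukocyte markers was, LYZ (-0.95 ± 0.16 with 10 arrays). LYZ lost its 12-array call in 9 of 12 fits that left out 1 array (highest adjusted p = 0.0841). The part of cell makeup in these interactions was not tested.

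NRP1, a coreceptor for VEGF, measured 11.40, 11.33 and 10.66 in Hi controls, 11.29, 11.33 and 11.36 in treated Hi cells, 10.76, 10.74 and 11.38 in Lo controls and 9.94, 10.04 and 10.10 in treated Lo cells. It fell in 2 steps across the 10 arrays. Its interaction was -0.69 ± 0.11 with 10 arrays and -1.13 ± 0.27 with 12 (limma, adjusted p = 0.00359 and 0.0325), and the 12-array call was lost without any 1 of the 6 treated arrays or Lo control replicate 3 (highest adjusted p = 0.0774). ERG, an endothelial transcription factor, measured 11.30, 11.21 and 10.89 in Hi controls, 11.23, 11.25 and 11.21 in treated Hi cells, 10.93, 10.98 and 11.25 in Lo controls and 10.39, 10.37 and 10.33 in treated Lo cells. It had -0.56 ± 0.10 and -0.78 ± 0.15. EGFL7 (-0.75 ± 0.14) lost its 10-array call without Hi control replicate 2 or Lo control replicate 1 (0.0612) and TEK, the angiopoietin receptor (-0.51 ± 0.11), in 6 of 10 such fits (0.134). NOS3, the endothelial nitric oxide synthase, had 0.08 ± 0.23 with 10 arrays and -0.16 ± 0.25 with 12 and did not pass (adjusted p = 0.936 and 0.779).

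Of 25 leukocyte adhesion molecules 1 was higher and 1 lower with both sets, near the shares of all genes (1.69% and 1.6%). ICAM1, the ligand of leukocyte integrins, measured 9.57, 9.89 and 9.50 in Hi controls, 9.69, 9.82 and 9.60 in treated Hi cells, 9.27, 9.47 and 9.65 in Lo controls and 10.25, 10.28 and 10.12 in treated Lo cells. The interaction was 0.88 ± 0.16 with 10 arrays and 0.71 ± 0.17 with 12, and the call was lost in the 10 arrays without Lo control replicate 1 (adjusted p = 0.05) and in 8 of 12 fits of the 12 arrays that left out 1 array (highest 0.0807). P-selectin, SELP, had -0.82 ± 0.14 and lost its 10-array call without Lo control replicate 2 (0.0532). With 10 arrays the integrin ligand VCAM1 had -0.13 ± 0.13 and the endothelial selectin SELE -0.16 ± 0.10, neither of which passed (limma, adjusted p = 0.727 and 0.566). On the 12 arrays VCAM1 measured 5.79 to 6.11 and SELE 5.07 to 5.32. These levels lay in or below the range of the leukocyte gene CD3E (5.75 to 6.19), so both values say little about a response. PTGIS, prostacyclin synthase, had -0.88 ± 0.15 with 10 arrays and -1.04 ± 0.16 with 12, and was 1 of 2 lower genes of prostanoid metabolism called with both sets; the other, the thromboxane synthase TBXAS1 (-0.46 ± 0.11), lost its call in 9 of 10 fits of the 10 arrays (0.172).

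Of 39 interferon-stimulated genes, 13 were called higher in Lo than in Hi controls in the 10 arrays, beside 3.67% of all genes, and none with 12 arrays, where no gene was called for that gap. For the interaction 1 was called higher with 10 arrays, near the share of all genes (2.02%), and 2 with 12. The median gap was 0.35 in controls and 0.59 in treated cells. The median interaction was 0.10 with 10 arrays and 0.44 with 12. IRF7, a regulator of interferon genes, had 0.50 ± 0.12 with 10 arrays and 0.79 ± 0.20 with 12 and lost its call in 9 of 10 and 8 of 12 fits that left out 1 array (limma, highest adjusted p = 0.216 and 0.103). Cytosolic ribosomal protein genes (39) and cholesterol synthesis genes (20) held no called interaction with either set (limma). Of 28 NRF2 and oxidative stress genes, OSGIN1 was called with both (0.52 ± 0.12 with 10 arrays) and lost its call in 9 of 10 and 8 of 12 such fits (0.158 and 0.0922). Matrix proteases (30) held 1 called gene with each set and 0 with both. Hypoxia and glycolysis genes (31) held 3 higher with 10 arrays and 4 with 12, and coagulation genes (22) 2 higher and 1 lower with 10 arrays. Over all genes the shares were 2.02% higher and 2.14% lower with 10 arrays, and 2.57% and 2.24% with 12. The matrix protease list and the lists without a call were near these shares.

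Read the other way, the interaction is the Lo minus Hi gap in treated cells minus the same gap in controls. In the 10 arrays 1320 genes (7.17%) differed between Lo and Hi controls and 5106 (27.7%) between treated Lo and Hi cells. With 12 arrays the first count was 0. There 387 genes had an unadjusted p under 0.05 in limma, fewer than that threshold gives over 18417 genes without any gap. Of the 311 higher genes called with both sets, 253 (81.4%) widened, with a median gap of 0.24 in controls and 0.98 in treated cells. The other 58 crossed, from -0.08 to 0.55. Of the 294 lower genes, 136 (46.3%) widened, from -0.19 to -0.92, and 158 (53.7%) crossed, from 0.22 to -0.76. These classes use the sign of the control gap whether or not that gap was called. It was called in 66 of the 253 and 0 of the 58 higher genes. Among the lower genes it was called in 41 of the 136 and 12 of the 158. For most genes the order of the controls is therefore uncertain. None of the 605 narrowed. With 10 arrays, 276 of 372 higher genes (74.2%) widened, 93 (25%) crossed and 3 narrowed. Of 395 lower genes, 164 (41.5%) widened, 218 (55.2%) crossed and 13 narrowed. The call with both sets bears on these shares. In the 10 arrays the control gap had the sign of the interaction in 217 of 281 genes called only with 12 (77.2%). It had the opposite sign in 111 of 162 called only with 10 (68.5%). By these gaps TNFAIP3, C3 and NRP1 were shifted in Lo controls in the direction that treatment extended. BUB1, CCNB1 and TOP2A (control gap 0.48 ± 0.13) were shifted against it.

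**Figure D4:**
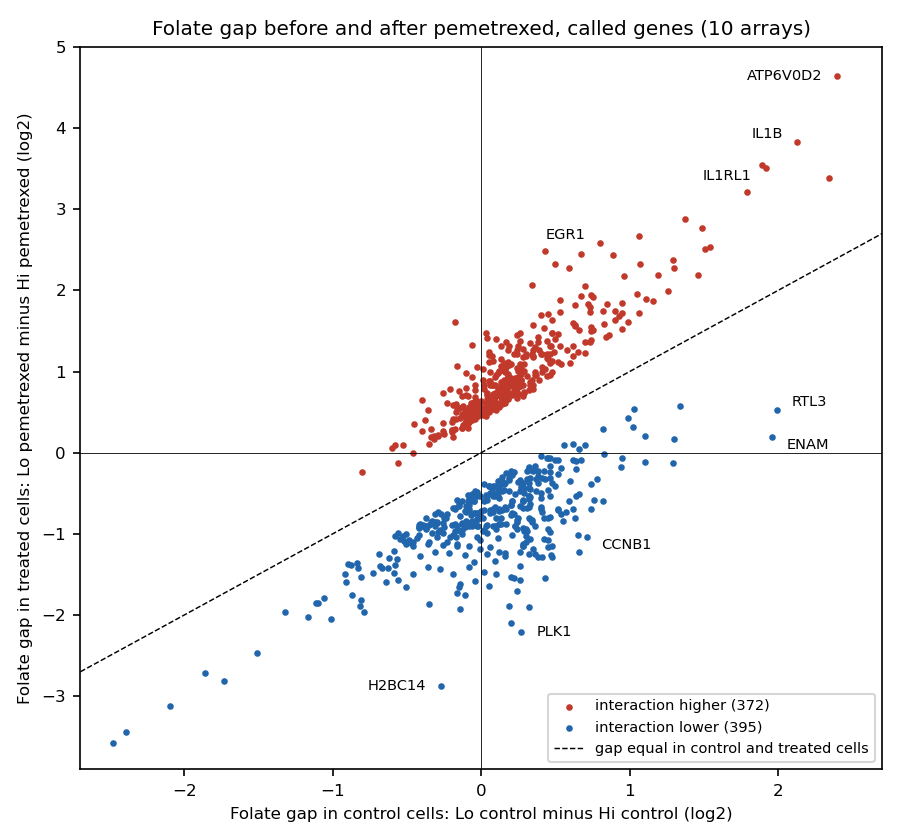
Lo minus Hi difference in control cells (horizontal axis) and in treated cells (vertical axis), log2, for the 767 genes called with 10 arrays, red for a higher (372) and blue for a lower (395) interaction; on the dashed line both gaps are equal. IL1B and ATP6V0D2 lie at the upper right, CCNB1 and PLK1 at the lower right, and ENAM and RTL3 have treated gaps of 0.19 and 0.53 after control gaps of 1.96 and 1.99.

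Narrowing was seen in 16 genes called with 10 arrays only, named here after their values were seen: CD36, CRIM1, DPP4, ENAM, FAM133A, FOXO4, GRB14, IL6-AS1, KLF6, PCOLCE2, PLCE1, RGS7, RTL3, SERPINB10, SPRED2 and TOX. In all but FOXO4, KLF6 and SPRED2 the Lo controls were above the Hi controls, by 0.56 to 1.99, and treated Lo cells were above treated Hi cells by only 0.05 to 0.57. RTL3, a gene of retrotransposon origin, measured 5.24 and 5.51 in Hi controls 1 and 2, 5.46, 5.51 and 5.24 in treated Hi cells, 7.23 and 7.49 in Lo controls 1 and 2 and 5.98, 5.84 and 5.97 in treated Lo cells. The controls labelled replicate 3 measured 7.04 in the Hi and 5.30 in the Lo group. Its interaction was -1.46 ± 0.16 with 10 arrays and -0.22 ± 0.72 with 12 (limma, adjusted p = 0.000582 and 0.907), and with 12 its sign turned without Hi control replicate 1, Lo control replicate 1 or Lo control replicate 2.

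ENAM, which encodes an enamel matrix protein, measured 6.82, 7.04 and 8.59 in Hi controls, 6.53, 6.82 and 7.28 in treated Hi cells, 8.70, 9.08 and 7.13 in Lo controls and 7.11, 6.96 and 7.12 in treated Lo cells. Treated Lo cells overlapped with Hi cells. It had -1.78 ± 0.25 with 10 arrays and -0.63 ± 0.68 with 12 (limma, adjusted p = 0.00245 and 0.673). FABP4, a fatty acid carrier, measured 7.86, 7.86 and 8.89 in Hi controls, 7.88, 7.80 and 7.89 in treated Hi cells, 8.80, 9.13 and 7.73 in Lo controls and 7.72, 7.87 and 7.64 in treated Lo cells. It had -1.21 ± 0.14 and -0.46 ± 0.45 (adjusted p = 0.000887 and 0.63). The cartilage gene MATN3 (-1.41 ± 0.21 and -0.63 ± 0.48) followed the same course, and its control gap was 1.29 ± 0.17 against -0.13 in treated cells.

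Of the 162 genes called only with 10 arrays (61 of them higher), 161 had the same sign with 12, as did all 281 called only with 12 (163 higher, 118 lower) with 10. RRM2, the small subunit of ribonucleotide reductase, had -1.34 ± 0.23 with 10 arrays and -0.95 ± 0.29 with 12 (limma, adjusted p = 0.00632 and 0.0876). ANLN, a scaffold of the cleavage furrow, had -1.41 ± 0.22 and -0.99 ± 0.30, and SHCBP1 -1.43 ± 0.20 and -1.04 ± 0.29. SKA3 of the kinetochore (-1.32 ± 0.26) lost its 10-array call without Hi control replicate 1 or Lo control replicate 2 (highest adjusted p = 0.074). Among genes called only with 12, NIPAL1, a magnesium transporter, had 1.51 ± 0.37 with 12 arrays and 1.00 ± 0.26 with 10 (0.0357 and 0.0519), and LCP1, an actin bundler, 1.35 ± 0.32 and 0.91 ± 0.23 (0.0333 and 0.0525). Both lost the 12-array call in 9 of 12 fits that left out 1 array (highest adjusted p = 0.0932 and 0.0887). With the replicate block on the 10 arrays both were called (limma, adjusted p = 8.08e-05 and 0.000247), as were the other 6 genes called only with 12 that the rule names, TUFT1, ARB2BP, UTS2B, AVPI1, LACC1 and CNTRL.

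Including the 2 controls changed the size of values more than their direction. Of the 311 higher genes 270 had the larger interaction with 12 arrays (medians 0.83 and 0.69), as did 178 of the 294 lower (-0.92 and -0.83). At least 2-fold, with both controls included, were 122 higher and 124 lower calls, and without them 62 and 121. The median standard error over all genes was 0.13 with each set. It hides genes with a gap between Lo and Hi controls. For TNFAIP3 and for RTL3 the standard error was 0.72 with 12 arrays and 0.16 with 10. For PLK1 it was 0.17 and 0.19.

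**Figure D5:**
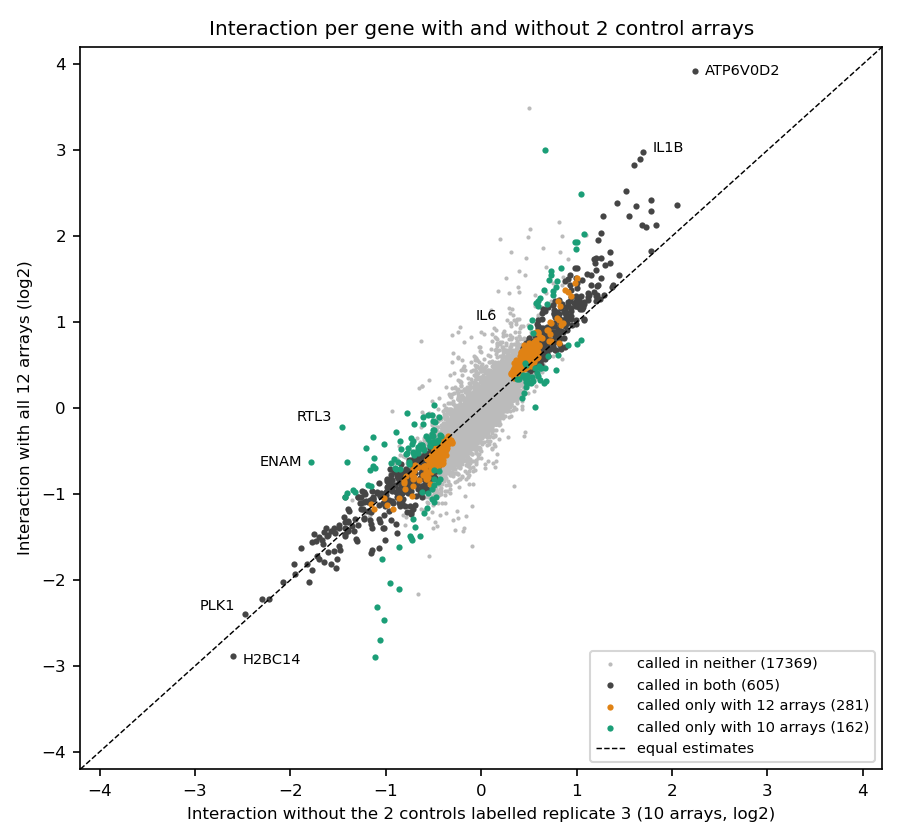
Interaction per gene (log2) with 10 arrays (horizontal axis) and 12 arrays (vertical axis), coloured by the set in which the gene was called; the dashed line marks equal estimates. IL1B and ATP6V0D2 lie above the line, H2BC14 and PLK1 near it, and RTL3 and ENAM come closer to 0 with 12 arrays.

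Responses of opposite sign at an unadjusted p under 0.05 in both kinds of cells (limma, 10 arrays) were seen in 19 of the 605 genes, 12 higher and 7 lower. DUSP10 measured 7.65 and 7.55 in Hi controls 1 and 2, 7.44, 7.36 and 7.28 in treated Hi cells, 7.41 and 7.57 in Lo controls 1 and 2 and 8.14, 8.19 and 8.14 in treated Lo cells. Its responses were 0.66 ± 0.08 in Lo and -0.24 ± 0.08 in Hi cells (unadjusted p = 0.0119 in Hi, limma), and the Hi control labelled replicate 3 was at 7.46. SERTAD4 measured 8.73, 8.72 and 8.42 in Hi controls, 8.90, 8.98 and 9.07 in treated Hi cells, 8.51, 8.73 and 8.91 in Lo controls and 7.75, 7.53 and 7.88 in treated Lo cells. Its responses were -0.90 ± 0.11 and 0.26 ± 0.11 (unadjusted p = 0.0318 in Hi, limma). No Hi response passed the adjustment over all genes, so the opposite signs rest on unadjusted values in Hi cells. Of the 605 genes, 23 had an unadjusted p under 0.05 in Hi cells (limma). The 605 were selected for unequal Lo and Hi responses on these same arrays, which favours opposite signs in advance. The 19 genes therefore describe the calls and are not separate support for opposite responses.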

How the data were processed

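The authors deposited RMA expression on the log2 scale, made with Partek 6.5 from Affymetrix arrays, per the submitters' processing notes. No source names the RMA settings, and no detection limit is known. Of 33297 probe sets, 19460 had 1 gene symbol, 1754 several and 12083 none listed. No further normalization or filter was applied. For each set of arrays (12, or 10 without the controls labelled replicate 3) a mean per group was fitted by lmFit and eBayes of limma 3.58.1 (R 4.3.3), with two-sided tests and Benjamini-Hochberg adjustment over 18417 genes. The fit was tested on simulated data. Values after ± are standard errors.

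The labels number replicates alike in each group. In the 10 arrays, all 13 pairs with a shared number had correlated deviations (r from 0.115 to 0.543, all over 0.1), so the block on replicate number was given; where a group keeps 2 controls, their deviations are opposite by construction. In 12 arrays 11 of 18 pairs passed 0.1. The labels gave no other batch.

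Genes named are the 12 largest in each direction called with both sets, up to 4 per list by p, 8 called with only 1 set, genes of opposite response and a fixed set. Members and lists were chosen with earlier results of these data known. Alternatives covered the variance moderation, array weights, dim genes, quantile normalization, the probe set of a gene and the features adjusted over. Promoters are from RefSeq, GRCh38.p14.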

Additional observations from a re-analysis of the deposited data

Results flagged for a closer look

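The responses of Lo and Hi cells to pemetrexed differed by a test of the difference itself, the interaction (limma), in 886 genes with 12 arrays, 767 with 10 and 605 with both. Of the 19 genes with opposite responses (10 arrays), the 6 largest on the higher side were ANKRD42 (0.99), BHLHE40 (0.93), ARID5B (0.93), DHRS2 (0.91), DUSP10 (0.90) and ELOVL7 (0.89). The 6 largest on the lower side were SERTAD4 (-1.16), SAMD13 (-0.79), the RNA-binding LSM3 (-0.79), the thymidylate kinase DTYMK (-0.74), the transcription factor CREB3L4 (-0.67) and the mitochondrial ribosomal MRPL48 (-0.61). With 12 arrays BHLHE40 lost its call in 6 of 12 fits that left out 1 array (highest adjusted p = 0.0822), ARID5B in 8 (0.0726), DTYMK in 8 (0.0821), LSM3 in 10 (0.099) and MRPL48 in 9 (0.0775). With 10 arrays DHRS2 lost it in 3 of 10 (0.0547), ELOVL7 in 2 (0.0783), LSM3 in 2 (0.109) and MRPL48 in 7 (0.157). All these genes were selected for a difference between the Lo and Hi responses, and their opposite signs rest on unadjusted values in Hi cells. No sample of a group was tested as an outlier, since groups held 3 arrays.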

How the results depend on the processing

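Counts of called genes moved with the settings, and the cause was not tested unless named. With the replicate block the 10 arrays gave 1738 interaction calls (862 higher, 876 lower), 3385 in the Lo response, 987 widened and 702 crossed gaps, in place of 767, 2018, 440 and 311; with 12 arrays the pairing is not borne out and the block gave 994 in place of 886. Without moderation of the variances the counts were 291 with 12 arrays (151 higher, 140 lower), 243 with 10, 1257, 144 and 93. Adjusted over all probe sets, which tests more features, they were 457 (239 and 218), 357, 1334, 211 and 141. Leaving out 1 array gave 443 to 956 with 12 arrays (238 to 496 higher, 205 to 460 lower), 333 to 837 with 10, 909 to 2310, 191 to 444 and 135 to 376, and the Hi response stayed at 0 in each. Where 1 control remained in a group, it was assumed to vary like the other groups. Over 2631 settings of named genes, 2256 kept direction and side of the threshold, 322 no longer passed, 32 newly passed and 21 turned sign.

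Small list counts with 12 arrays also moved without single arrays. The ERK feedback and the hypoxia lists went from 4 to 2 without any of 6 arrays each, both without Hi pemetrexed 2 or 3, Lo control 2 or 3 or Lo pemetrexed 1. The interferon list went from 2 to 0 without any treated array or Lo control 3, the adhesion list from 3 to 1 without any of 6 arrays, the proton pump list from 3 to 1 or 0 without any of 6 arrays, and the receptor list from 3 to 5 without Hi control 1. Lists with 0 or 1 called member moved by 1.

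Sign turned for genes near 0 and for RTL3. Leaving out 1 array moved the RTL3 interaction between -0.90 and 0.19, with 0.13, 0.06 and 0.19 without Hi control 1, Lo control 1 and Lo control 2. The GART interaction was -0.02 with 10 arrays, with and without the block, and ran from -0.03 to 0.16 without single arrays, below 0 without Hi control 1 (-0.02), Hi pemetrexed 2 (-0.03) and Lo control 3 (-0.01). The ATIC interaction was -0.10 with 10 arrays, with and without the block, -0.01 with array weights, and from -0.01 (without Lo control 3) to 0.16 without single arrays. The SLC19A1 interaction was 0.00 after quantile normalization and ran from -0.10 to 0.02 without single arrays, with 0.01 and 0.02 without Hi control 2 and Hi pemetrexed 1; the FOLR1 interaction was 0.00 after quantile normalization. The SELE interaction ran from -0.11 to 0.02 without single arrays, with 0.01 and 0.02 without Hi control 1 and Lo control 1. The NOS3 interaction was 0.08 with 10 arrays, with and without the block, and 0.02 with array weights.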

Other observations

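Probe sets left out for their annotation also held calls when all 33297 were adjusted together (limma). Of 12083 with no gene listed, 48 were called with 12 arrays, 32 with 10 and 22 with both (13 higher, 9 lower). Of 1754 with several symbols, 39, 28 and 13 were called (12 higher and 1 lower with both). The shares with 12 arrays were 0.397% and 2.22%, against 2.45% of the probe sets with 1 symbol.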
